A study of Mus musculus with 6 samples.

Results

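The 9 adenylyl cyclase genes of the mouse other than Adcy3 were followed in brown fat of cold-exposed mice whose adipocytes had lost Adcy3. They were found by symbol, Adcy1, Adcy2 and Adcy4 to Adcy10, among the 54385 gene rows of the table, without use of any measured value. Each symbol had 1 row. The knockout mice carried 2 floxed copies of Adcy3 and Adipoq-Cre (Adcy3-FL/FL/Adipoq-wt/cre, 3 libraries), and the control mice carried the same floxed copies with no Cre (Adcy3-FL/FL/Adipoq-wt/wt, 3 libraries). All were C57BL/6N mice kept on chow for 20 weeks and then held at 5 °C for 24 hours, so no group without cold and none without floxed alleles enters the comparison. Adipoq-Cre acts in white and brown adipocytes alike, and the vessel, nerve, immune and muscle cells of the depot keep their Adcy3. The sample labels name interscapular brown fat, whereas the design text of the series names another depot and 4 replicates; the sample labels were followed. The labels call the libraries replicates without saying whether each is a separate mouse, so p-values measure the spread between these libraries.

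Adenylyl cyclases turn ATP into cyclic AMP. In brown fat, noradrenaline released in the cold acts on beta-adrenergic receptors, the stimulatory G protein activates the cyclases, and cyclic AMP then drives protein kinase A, lipolysis and heat production. The membrane cyclases fall into classes by what regulates them besides that G protein. Adcy1, Adcy3 and Adcy8 are stimulated by calcium and calmodulin, Adcy2, Adcy4 and Adcy7 are stimulated by G protein beta-gamma subunits, Adcy5 and Adcy6 are inhibited by calcium and by the inhibitory G protein, and Adcy9 responds little to forskolin. Adcy10 encodes a soluble cyclase that senses bicarbonate.

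The tissue was checked first. The 10 brown adipocyte markers, Ucp1 among them, together stood between 9970 and 11000 counts per 1000000 (CPM, scaled by library size and TMM factor) in knockouts and between 7890 and 8790 CPM in controls, and none of the 10 was at 0 in a library. The 20 skeletal muscle markers took 0.926%, 0.0713% and 0.00764% of counts in the 3 knockout libraries in turn, against 2.20%, 1.99% and 1.68% in the 3 control libraries (p = 0.1 in an exact permutation test, two-sided, with no smaller p possible for 3 against 3). The same permutation test gave p = 0.1 for the shares of the brown adipocyte markers, higher in every knockout library, and of the fibroblast and white adipocyte markers, lower in every knockout library. Knockout library 1 also stood apart by transcript length. Its 5299 tested genes with a longest transcript of at least 4000 bases lay at a median 0.21 below the mean of the other 2 knockout libraries on the log2 scale, and its 3498 genes under 2000 bases lay at a median 0.39 above. In the controls these medians were between -0.04 and 0.05. All 9 cyclases have a longest transcript over 4000 bases.

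Upstream sequence is shown for the 4 genes tested whose knockout libraries all lay below all controls, Adcy2, Adcy5, Adcy7 and Adcy9, as context for the values that follow. The 250 bases before the annotated start are printed from RefSeq (GRCm38.p6), which held 9 promoters for 7 of the 9 genes; Adcy6 and Adcy8 had no entry. Capitals mark TGACG or its reverse complement CGTCA, the core that cyclic AMP response elements share.
Adcy2, chr13:68999542-68999791, minus strand: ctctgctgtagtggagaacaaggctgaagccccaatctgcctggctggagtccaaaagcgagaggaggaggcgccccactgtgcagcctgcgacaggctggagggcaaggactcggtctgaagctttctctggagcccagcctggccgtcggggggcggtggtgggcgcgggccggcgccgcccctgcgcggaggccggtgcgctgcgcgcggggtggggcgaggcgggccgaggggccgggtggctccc
Adcy5, chr16:35154614-35154863, plus strand: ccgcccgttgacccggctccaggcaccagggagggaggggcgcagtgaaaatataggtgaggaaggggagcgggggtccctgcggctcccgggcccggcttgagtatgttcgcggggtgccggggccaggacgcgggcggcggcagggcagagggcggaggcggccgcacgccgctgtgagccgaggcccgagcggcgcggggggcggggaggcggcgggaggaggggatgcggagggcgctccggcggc
Adcy7, the first of 3 starts, chr8:88282742-88282991, plus strand: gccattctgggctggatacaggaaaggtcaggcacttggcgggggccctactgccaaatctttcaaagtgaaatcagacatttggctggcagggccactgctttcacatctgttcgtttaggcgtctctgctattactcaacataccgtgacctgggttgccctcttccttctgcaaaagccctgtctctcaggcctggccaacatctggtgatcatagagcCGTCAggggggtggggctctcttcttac
Adcy9, chr16:4420499-4420748, minus strand: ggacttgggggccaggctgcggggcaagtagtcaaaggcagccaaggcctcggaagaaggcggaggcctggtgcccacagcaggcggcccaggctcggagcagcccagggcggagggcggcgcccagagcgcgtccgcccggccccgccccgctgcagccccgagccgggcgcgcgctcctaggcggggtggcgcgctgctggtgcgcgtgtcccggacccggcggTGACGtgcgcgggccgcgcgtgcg
The core stood once in the Adcy7 sequence and once in that of Adcy9, and was in none of the other 7 promoters found, those of Adcy1, Adcy4, Adcy10, Adcy2 and Adcy5 and the other 2 of Adcy7. It was in 17.8% of 32851 promoters of the same length, on either strand. The full palindrome TGACGTCA, which contains the core on both strands, was in 1.55% of promoters and in none of the 9. The E-box CAGCTG, a palindrome bound by myogenic factors, was in 13.0% of promoters and in none of the 9. The 250 bases were 73.2% G and C for Adcy2, 78.0% for Adcy5 and 78.8% for Adcy9, against a median of 52.4% over all promoters, and 54.0% for the Adcy7 sequence shown.

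Adcy6 was the most abundant of the 9 cyclases in both genotypes when read per length. Levels between genes are compared as counts per kilobase of merged exons, scaled to a sum of 1000000 per library (TPM). Adcy6 (ENSMUSG00000022994, chromosome 15, 98589973 to 98610076, minus strand, GRCm38) stood at 41.6, 63.0 and 54.8 TPM in knockout libraries 1 to 3, against 48.0, 55.6 and 64.1 TPM in control libraries 1 to 3. The next in order in both groups, by merged exons, was Adcy4, at a mean of 7.68 TPM in knockouts and 8.74 TPM in controls, and no library of Adcy4 reached the lowest of Adcy6.
In knockouts the order went on with Adcy10 (7.29 TPM), Adcy9 (3.43), Adcy5 (1.12), Adcy7 (0.953), Adcy2 (0.398), Adcy8 (0.0315) and Adcy1 (0.0247). Each of these overlapped its neighbour in the order over the 3 knockout libraries, as Adcy4 did with Adcy10. In controls it went on with Adcy10 (7.46 TPM), Adcy9 (6.91), Adcy2 (3.19), Adcy5 (2.77), Adcy7 (1.66), Adcy1 (0.0980) and Adcy8 (0.0458). There Adcy4 overlapped Adcy10, Adcy10 overlapped Adcy9 and Adcy2 overlapped Adcy5, while the other neighbours did not overlap. Adcy2 thus ranked 7 of 9 in knockouts and 5 of 9 in controls. With the median length of protein-coding transcripts in place of merged exons, Adcy6 stood at 111 TPM in knockouts and 115 TPM in controls, and was still the highest. Adcy10 stood above Adcy4 by both other lengths, at 10.2 against 7.48 TPM in knockouts and 10.4 against 8.49 TPM in controls with the longest transcript. With the median protein-coding length it was at 8.29 against 6.95 TPM in knockouts and 8.35 against 7.77 TPM in controls, so the order of these 2 depends on the length used.

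**Figure D1:**
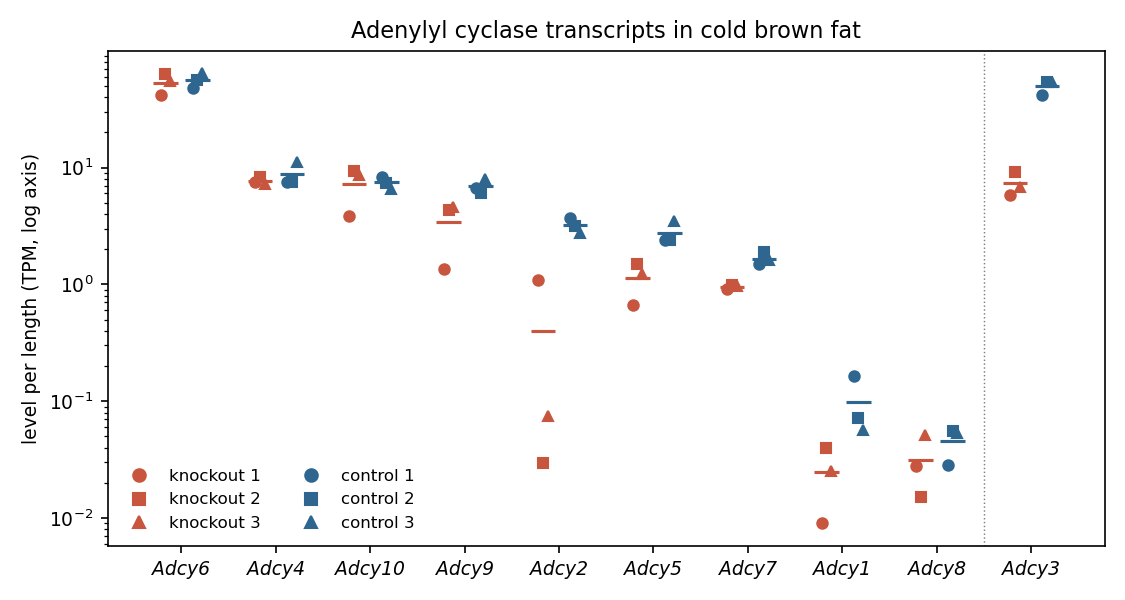
Level per length (TPM, log axis) of the 9 cyclases and, right of the dotted line, Adcy3, in each library; orange points are knockouts, blue points controls, and bars are group means. Adcy6 sits highest in both groups, at means of 53.1 TPM in knockouts and 55.9 TPM in controls, and the Adcy2 points of knockout libraries 2 and 3 lie far below the rest of that gene.

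No cyclase passed the test between genotypes. Of the 9 genes, 7 passed the filter on low counts and 2, Adcy1 and Adcy8, did not. The quasi-likelihood test of edgeR, adjusted by Benjamini-Hochberg over all 14767 genes tested, called 0 of the 7 at an adjusted p under 0.05. It called 0.0339% of genes lower and 0.0271% higher, 0.0609% in all. At an unadjusted p under 0.05, 4 of the 7 were lower and 0 higher, where 7.60% and 2.87% of all genes were. The same 4, Adcy2, Adcy5, Adcy7 and Adcy9, had every knockout library below every control, and none of the 7 had every knockout library above, where 10.8% and 7.66% of all genes did so. A negative log2 fold change was found in 4 of the 7, against 48.3% of all genes, and the median was -0.62 over the 7 and 0.01 over all genes tested. The controls were enough for Adcy2 to pass the filter, and of the knockouts only library 1 was above its minimum count. The counts over the 7 are therefore a description. Adcy3 itself, the targeted gene, stood at 21.9, 30.3 and 24.0 CPM in knockouts and 134, 169 and 158 CPM in controls (log2 fold change -2.60 ± 0.17, SE; edgeR adjusted p = 0.00146). DESeq2's Wald test called 1 of the 7, Adcy5 (adjusted p = 0.0135), and 0 higher, where it called 1.87% of genes lower and 0.210% higher. Without knockout library 1, Adcy2 passed the filter through the controls alone, so its call there is a description. In that fit edgeR called Adcy2 and Adcy5 lower and 0 higher, where 5.35% of genes were called lower and 0.296% higher. With no filter on low counts it called Adcy2, Adcy5 and Adcy9 lower and 0 higher, where 2.45% of genes were called lower and 0.348% higher.

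**Figure D2:**
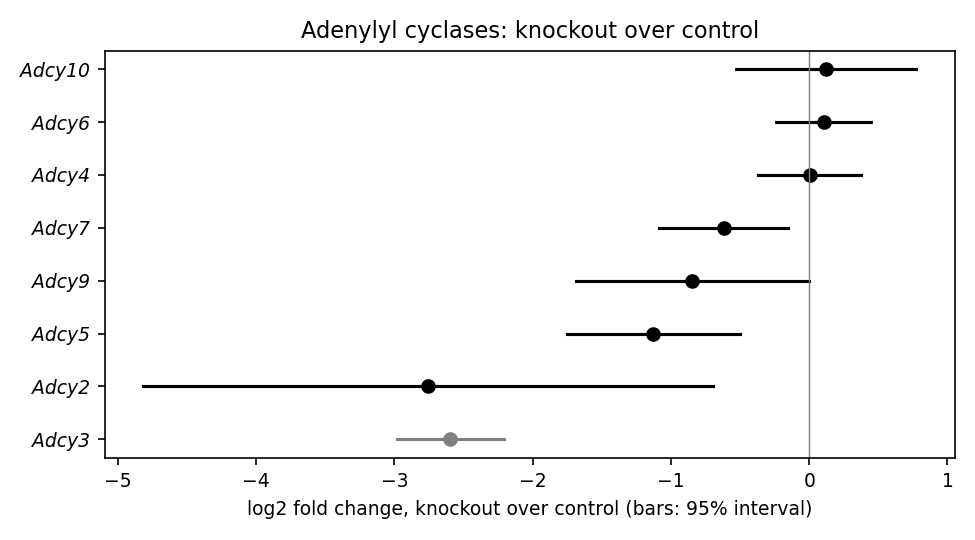
Log2 fold change, knockout over control, of the 7 cyclases tested and of Adcy3 (grey), with the 95% interval of edgeR's fit. The intervals of Adcy10, Adcy6 and Adcy4 span 0 and that of Adcy2 is the widest, from -4.82 to -0.69.

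Of the calcium-inhibited pair, Adcy6 was even between genotypes and Adcy5 was lower in every knockout library. Adcy6, a widely expressed cyclase prominent in heart and kidney, was measured at 168, 224 and 210 CPM in knockouts, against 167, 190 and 203 CPM in controls. The groups overlapped, and knockout library 1 was close to the lowest control. Its mean was 201 ± 29.2 CPM in knockouts and 187 ± 18.1 CPM in controls (SD, n = 3 each). The fitted fold over all 6 libraries was 1.07, with a 95% interval of 0.845 to 1.37, so a rise by more than 1.37-fold lay outside the interval of this fit. Knockout library 1 was at 90.0% of the control mean, and libraries 2 and 3 were at 120% and 112%. Without library 1 the log2 fold change of Adcy6 was 0.22 ± 0.12 (SE, edgeR adjusted p = 0.418), against 0.10 ± 0.15 with it. With the transcript length trend of each library removed it was 0.18 ± 0.11 (SE, edgeR adjusted p = 0.565). An antisense gene model, Gm29331, overlaps the end of Adcy6 and held 34 to 201 counts in knockouts and 0 to 127 in controls, beside 2490 to 3544 and 2848 to 3331 counts for Adcy6. The sources here do not say whether counting used strand, so reads of the overlap cannot be assigned.

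Adcy5 (ENSMUSG00000022840, chromosome 16, 35154877 to 35305738, plus strand), the cyclase best known from striatum and heart, stood at 2.84, 5.59 and 4.98 CPM in knockouts. In controls it stood at 8.87, 8.76 and 11.8 CPM. The groups did not overlap and knockout library 1 was the lowest of all. The log2 fold change was -1.13 ± 0.27 (SE), a fold of 0.458 with a 95% interval of 0.296 to 0.707, and the edgeR adjusted p was 0.207. Knockout libraries 2 and 3, at 57.1% and 50.8% of the control mean, lay nearer to the controls than library 1, at 29.0%. Without library 1 the value was -0.89 and passed (edgeR adjusted p = 0.0340). These values rest on 42 to 86 counts in each knockout library and 151 to 176 in each control.

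Adcy2 gave the widest spread. Adcy2 (ENSMUSG00000021536, chromosome 13, 68620043 to 68999541, minus strand), a cyclase stimulated by beta-gamma subunits and known from brain and skeletal muscle, had 2.74, 0.0651 and 0.178 CPM in the knockouts. In the controls it had 7.94, 6.70 and 5.43 CPM. Knockout libraries 2 and 3 held 1 and 3 counts, at or under the floor of 3 counts, while library 1 held 41 and the controls 81 to 135. The antisense model Gm35161 that overlaps its start held at most 9 counts in a library. The log2 fold change was -2.76 ± 0.89 (SE; edgeR adjusted p = 0.333), and without knockout library 1 it was -5.67 (edgeR adjusted p = 4.18e-05). In the fit without that library Adcy2 passed the filter on low counts through the controls alone, so its call there is a description. For libraries 2 and 3 summed against the controls the ratio was 0.0184, with a 95% exact binomial interval of 0.00499 to 0.0476 that covers counting error only.

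The muscle markers moved with Adcy2. As a percentage of the control mean, Adcy2 was at 41.0%, 0.973% and 2.66% in knockout libraries 1 to 3, and the summed muscle markers were at 47.4%, 3.65% and 0.391%. At 1 and 3 counts, the order of Adcy2 between libraries 2 and 3 was not resolved. Acta1, the actin of skeletal muscle fibres, had 1790, 91.4 and 5.32 CPM in knockouts, against 3020, 2820 and 2520 CPM in controls. Ckm, the creatine kinase of muscle, had 865, 37.9 and 2.37 CPM in knockouts, against 1340, 1270 and 1020 CPM in controls. In the controls too, Adcy2, the muscle share, Acta1 and Ckm shared 1 order, with library 1 highest and library 3 lowest. With the mean log2 CPM of the 20 markers (their score) as a covariate, the log2 fold change of Adcy2 was -0.79 ± 0.60 (SE, edgeR adjusted p = 0.573). With the muscle share as a covariate it was 1.73 ± 1.10 (SE, edgeR adjusted p = 0.483). The genes most like Adcy2 over the 6 libraries were Scn4b, a sodium channel subunit, Myom1, a protein of the sarcomere M band, and Hoxd9, a homeobox factor, each at r = 0.999 in log2 CPM, of 12113 genes compared. Scn4b stood at 36.1, 8.02 and 8.71 CPM in knockouts, against 87.2, 79.2 and 63.8 CPM in controls. In bulk tissue, fewer cells of a type and less RNA per cell cannot be told apart. Every knockout library (at most 0.926%) had a lower muscle share than every control (at least 1.68%). These fits in 3 against 3 libraries therefore cannot tell muscle content and genotype apart.

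**Figure D3:**
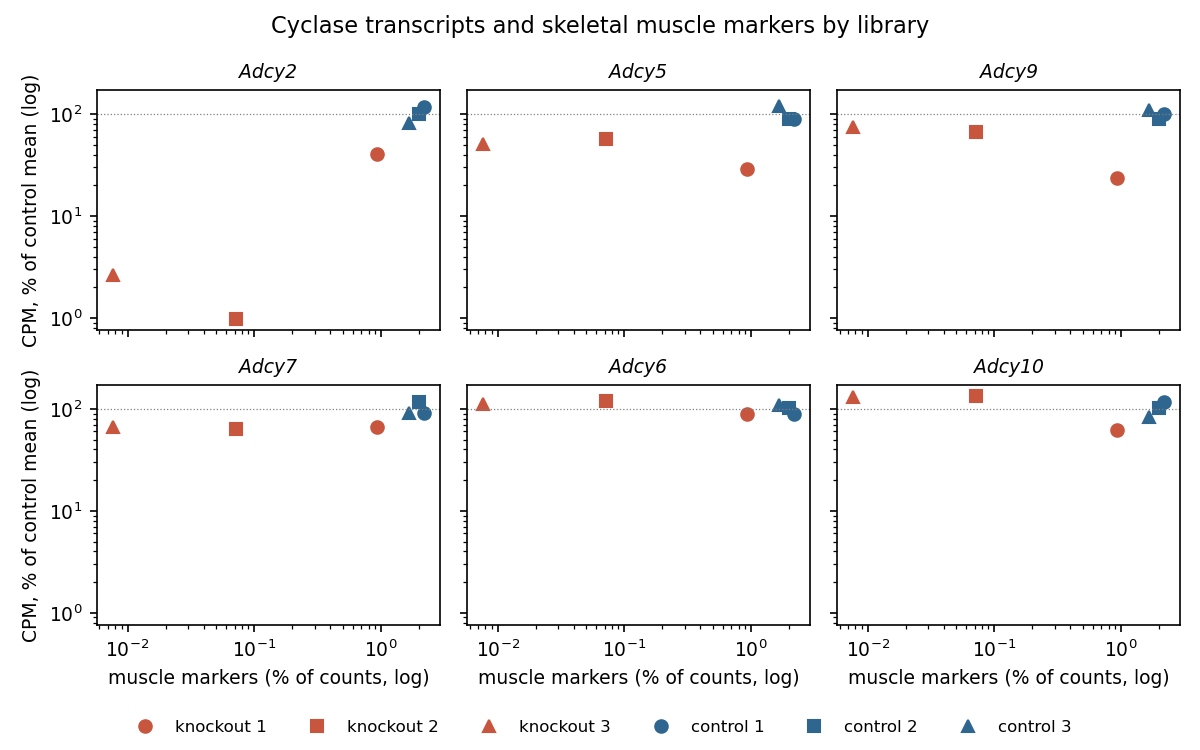
CPM of 6 cyclases as a percentage of the control mean (log axis) against the share of counts from 20 skeletal muscle markers (percent, log axis) in each library; orange points are knockouts, blue points controls, and the dotted line is 100%. Adcy2 is low in the knockout libraries with few muscle counts, whereas Adcy9 and Adcy5 are lowest in knockout library 1, which has the most muscle counts of the 3.

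Adcy9 and Adcy5 were lowest in knockout library 1, which held more muscle counts than knockout libraries 2 and 3 and also stood apart by transcript length. Adcy9 (ENSMUSG00000005580, chromosome 16, 4287529 to 4420498, minus strand) is a widely expressed cyclase, also found in skeletal muscle. It stood at 4.19, 11.9 and 13.4 CPM in knockouts, against 17.9, 15.9 and 19.4 CPM in controls. The groups did not overlap, and knockout libraries 2 and 3, with few muscle counts, kept 67.3% and 75.6% of the control mean, while library 1 was at 23.7%. The log2 fold change was -0.85 ± 0.37 (SE), a fold of 0.556 with a 95% interval of 0.310 to 0.998 (edgeR adjusted p = 0.477). Without knockout library 1 it was -0.48 ± 0.15 (SE, edgeR adjusted p = 0.120), and with the muscle score in the fit -1.99 ± 0.34 (SE, edgeR adjusted p = 0.0711). With the muscle share in the fit it was -3.29 ± 0.62 (SE, edgeR adjusted p = 0.299). For Adcy5 the same fits gave -1.67 ± 0.37 with the score (SE, edgeR adjusted p = 0.233) and -2.71 ± 0.50 with the share (SE, edgeR adjusted p = 0.299). With the transcript length trend of each library removed, it was -0.81 ± 0.33 (SE, edgeR adjusted p = 0.382), and that of Adcy5 was -1.06 ± 0.22 (SE, edgeR adjusted p = 0.179).
The genes most like Adcy9 were Slc1a3, a glutamate transporter (r = 0.986), Adnp, a chromatin-associated homeobox protein (0.985), and Pag1, a membrane adaptor (0.982). Those most like Adcy5 were Malt1, a paracaspase of immune signalling (0.988), Atad5, a factor that unloads the replication clamp (0.984), and Pip4k2b, a phosphoinositide kinase (0.977). In all 6 of these genes knockout library 1 held the lowest value of the 6 libraries, as in Adcy9 and Adcy5 themselves. Adcy9 and Adcy5 were also the members most like each other (r = 0.92 over the 6 libraries). Adcy2 was most like Adcy7 (0.82), then Adcy5 (0.52) and Adcy9 (0.23).

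Adcy7 differed from these by the evenness of its knockout values. Adcy7 (ENSMUSG00000031659, chromosome 8, 88272403 to 88329962, plus strand), a cyclase abundant in blood cells, stood at 3.65, 3.49 and 3.67 CPM in knockouts. In controls it stood at 5.11, 6.46 and 5.07 CPM, so the groups did not overlap. The log2 fold change was -0.62 ± 0.20 (SE), a fold of 0.651 with a 95% interval of 0.470 to 0.900, and the edgeR adjusted p was 0.337. It was between -0.71 and -0.52 whichever library was left out. With the muscle score in the fit it was -0.62 ± 0.34 (SE, edgeR adjusted p = 0.436). With the muscle share in the fit it was -0.56 ± 0.58 (SE, edgeR adjusted p = 0.660). As for Adcy2, these fits cannot tell muscle content and genotype apart. The 11 macrophage and leukocyte markers summed to 122, 62.1 and 56.6 CPM in knockouts, against 108, 73.2 and 133 CPM in controls, with overlap, and none of them was at 0. Knockout library 1 lay between 2 of the controls in this sum, and knockout libraries 2 and 3 lay below every control. Of the 8 fibroblast markers, 8 had a negative log2 fold change, at a sum of 403, 291 and 248 CPM in knockouts, against 639, 434 and 592 CPM in controls. The 4 white adipocyte markers likewise summed to 53.4, 50.7 and 50.4 CPM in knockouts, against 98.0, 75.3 and 107 CPM in controls. None of these markers passed the test or was at 0. At an unadjusted p under 0.05 in edgeR, 7 of the 8 fibroblast, 4 of the 4 white adipocyte and 2 of the 11 leukocyte markers were lower, beside 7.60% of all genes. The part of fibroblasts, leukocytes or white adipocytes in the lower Adcy7, Adcy5 and Adcy9 values was not tested. The genes most like Adcy7 were Fam160a1 (r = 0.998), Ubap2, a ubiquitin-associated protein (0.975), and Polk, a translesion DNA polymerase (0.975).

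Adcy4 and Adcy10 showed no difference beyond the spread between libraries. Adcy4 (ENSMUSG00000022220, chromosome 14, 55769057 to 55784095, minus strand), known from endothelium, stood at 21.2, 20.2 and 19.0 CPM in knockouts, against 18.2, 17.6 and 24.4 CPM in controls. The knockouts lay within the range of the controls. The log2 fold change was 0.00 ± 0.16 (SE), with a 95% interval for the fold of 0.775 to 1.30 (edgeR adjusted p = 0.996). The 12 endothelial markers summed to 875, 1060 and 923 CPM in knockouts, against 807, 861 and 1050 CPM in controls. Control library 3 was the highest control for both, but knockout library 1 was the highest knockout for Adcy4 and the lowest for the markers. The genes most like Adcy4 were Nrarp, a Notch pathway regulator (r = 0.987), Tmem204, a membrane protein of endothelium (0.986), and Dcbld1 (0.975).

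Adcy10 (ENSMUSG00000026567, chromosome 1, 165485183 to 165576774, plus strand) stood at 20.2, 43.2 and 42.5 CPM in knockouts, against 37.5, 32.8 and 26.9 CPM in controls. Knockout library 1 was below all controls and the other 2 above all controls. The log2 fold change was 0.12 ± 0.28 (SE), with a 95% interval for the fold of 0.694 to 1.71 (edgeR adjusted p = 0.925), and without knockout library 1 it was 0.40 ± 0.14 (SE, edgeR adjusted p = 0.181). Mpc2, a subunit of the mitochondrial pyruvate carrier, ends at 165481214 on the same strand, 3969 bases before Adcy10 starts. Mpc2 stood at 738, 493 and 560 CPM in knockouts, against 447, 460 and 433 CPM in controls. Knockout library 1 held the most Mpc2 and the least Adcy10, while knockout libraries 2 and 3 held more of both than every control. Whether reads of Mpc2 enter the Adcy10 counts was not tested. The genes most like Adcy10 were Nckap1, a part of the WAVE actin complex (r = 0.996), Cltc, the clathrin heavy chain (0.996), and Ubxn2a, a cofactor of the AAA ATPase p97 (0.994). All 3 were lowest in knockout library 1, as Adcy10 was.

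The calcium-stimulated pair, the class of Adcy3 itself, was close to absent. Adcy1 (ENSMUSG00000020431, chromosome 11, 7063489 to 7178506, plus strand) held 1, 4 and 3 counts in knockouts, against 18, 8 and 5 in controls. The summed ratio was 0.271 with a 95% exact binomial interval of 0.108 to 0.604 for counting error, and 18 of the 31 control counts came from 1 library. Adcy8 (ENSMUSG00000022376, chromosome 15, 64697084 to 64922296, minus strand) held 2, 1 and 4 counts in knockouts, against 2, 4 and 3 in controls. Its ratio was 0.818, with an interval of 0.259 to 2.47. Both are best known from neurons. In CPM, 3 counts correspond to between 0.178 and 0.203 in knockouts and between 0.172 and 0.201 in controls, so most of these values are at or near the floor.

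The summed level of the 9 other cyclases overlapped between genotypes. The 9 cyclases summed to 57.1, 87.5 and 77.5 TPM in knockouts, against 78.4, 84.2 and 97.8 TPM in controls, with overlap. The difference of the means was -12.7 TPM, and every one of the 9 had a lower mean in knockouts on this scale, by at most 3.49 TPM (Adcy9). Without knockout library 1 the difference was -4.25 TPM, and Adcy6 (58.9 TPM in knockouts, 55.9 TPM in controls) and Adcy10 (9.01 TPM in knockouts, 7.46 TPM in controls) then had the higher mean in knockouts. Over the same libraries Adcy3 differed by -42.5 TPM. In CPM the 9 summed to 223, 309 and 294 in knockouts, against 264, 279 and 297 in controls, with knockout library 1 below every control and library 2 above every control. The means were 276 ± 45.9 CPM in knockouts and 280 ± 16.2 CPM in controls (SD, n = 3 each). Without knockout library 1 they were 302 CPM in knockouts and 280 CPM in controls, and without control library 3 they were 276 CPM in knockouts and 272 CPM in controls, so the direction of this difference rested on single libraries. On this scale Adcy6, Adcy10 and Adcy4 had means equal to or above those of controls over all 6 libraries, so the direction of these 3 depends on the scale. Adcy6 made up 66.0%, 65.1% and 65.0% of the summed level of the 10 annotated cyclase genes in knockouts, against 39.9%, 40.4% and 42.2% in controls. Leaving Adcy3 out, it made up 72.8%, 71.9% and 70.7% of the other 9 in knockouts, against 61.3%, 66.1% and 65.5% in controls. Those shares did not overlap, while the level of Adcy6 did. All shares and ratios here are by merged exons. With the median protein-coding length Adcy6 stood at 111 TPM in knockouts and 115 TPM in controls. Its share of the other 9 thus depends on the length used. The level of Adcy6 was 7.09, 6.82 and 8.07 times that of Adcy3 in knockouts and 1.15, 1.04 and 1.19 times in controls. These sums leave out the entry ENSMUSG66666620654, numbered after Adcy3, which has no annotated length. It stood at 42.6, 48.7 and 66.0 CPM in knockouts, against 287, 336 and 245 CPM in controls. In controls its CPM was above that of Adcy3 (134, 169 and 158 CPM) and that of Adcy6 (167, 190 and 203 CPM). CPM is not per length, so the rank of this entry among these genes is not known. The shares of the 10 genes and the ratios of Adcy6 to Adcy3 thus hold for the annotated rows only. With this entry counted as Adcy3 they would be lower.

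**Figure D4:**
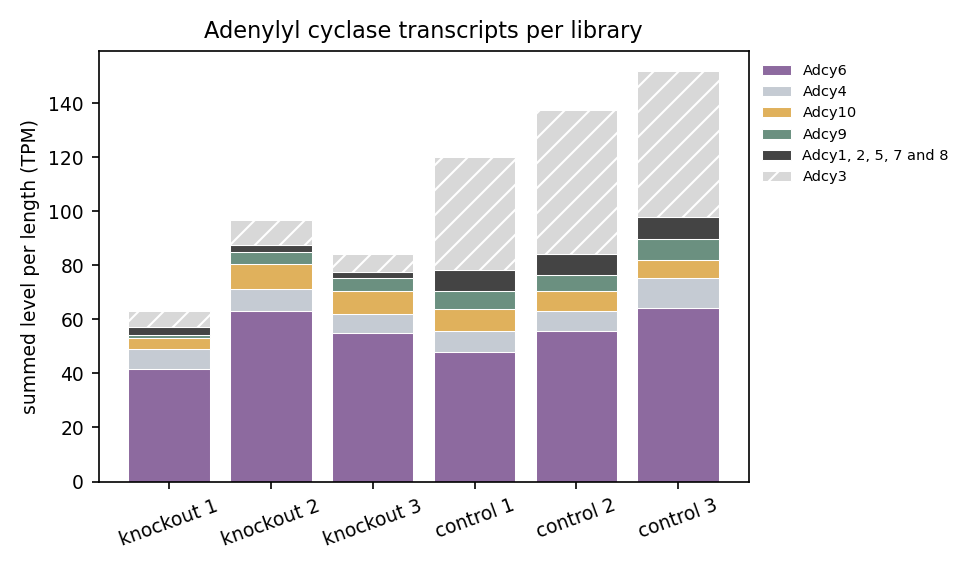
Summed level per length (TPM) of the cyclases in each library, knockouts left and controls right, stacked by gene with Adcy3 hatched on top. The Adcy6 block is of like height in both groups, while the Adcy3 block is between 5.87 and 9.24 TPM in knockouts and between 41.8 and 54.0 TPM in controls.

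Genes upstream and downstream of the cyclases were read from 6 lists with 83 genes. Of the 67 tested, 0 were called lower and 0 higher by edgeR over all genes, where 0.0339% and 0.0271% of all genes were. At an unadjusted p under 0.05, 12 were lower and 3 higher, beside 7.60% and 2.87% of all genes. Of 6 tested G protein alpha subunits, Gnas, the stimulatory subunit, stood at 3290, 2680 and 3220 CPM in knockouts, against 2300, 2690 and 2580 CPM in controls, with overlap (log2 fold change 0.28 ± 0.12, SE; edgeR adjusted p = 0.477). Gnal, its olfactory relative, averaged 0.961 ± 0.319 CPM in knockouts and 1.66 ± 0.328 CPM in controls (SD, n = 3 each). Of 15 tested cyclase regulators and scaffolds, with a median log2 fold change of -0.06, Prkca, a protein kinase C that can phosphorylate cyclases, stood at 7.10, 6.19 and 4.39 CPM in knockouts, against 14.5, 13.6 and 9.63 CPM in controls (edgeR adjusted p = 0.166). Akap6, an anchor of cyclases and protein kinase A in muscle, stood at 4.73, 1.09 and 0.665 CPM in knockouts, against 11.6, 10.6 and 8.53 CPM in controls (edgeR adjusted p = 0.251). Prkca and Akap6 both stood in the order of the muscle markers, at log2 fold changes of -1.1 and -2.26.

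Among 13 tested receptors (median -0.06), Crhr2, a receptor for urocortins, stood at 3.79, 0.391 and 0.296 CPM in knockouts, against 7.88, 8.04 and 5.56 CPM in controls (edgeR adjusted p = 0.362). Of 14 tested cyclic AMP effectors (median -0.34), Prkar2a, a regulatory subunit of protein kinase A, averaged 39.1 ± 5.28 CPM in knockouts and 63.2 ± 8.90 CPM in controls (SD, n = 3 each; edgeR adjusted p = 0.174). Pkia, an inhibitor of protein kinase A, stood at 24.4, 3.71 and 0.949 CPM in knockouts, against 78.8, 54.1 and 46.8 CPM in controls, again in the order of the muscle markers (edgeR adjusted p = 0.356). Crhr2, Prkca, Akap6 and Pkia were thus high in the libraries in which Adcy2 was high, and the part of muscle in them was not tested.

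Among 15 tested phosphodiesterases, the enzymes that break down cyclic AMP, the median log2 fold change was 0.01. Pde7a stood at 8.1, 6.27 and 5.54 CPM in knockouts, against 12.1, 12.1 and 9.75 CPM in controls (edgeR adjusted p = 0.226). Within each group its order did not go against that of the muscle markers, and the part of muscle in it was not tested. Pde4b averaged 10.6 ± 3.57 CPM in knockouts and 19.1 ± 4.14 CPM in controls (SD, n = 3 each, edgeR adjusted p = 0.321). Of 4 tested guanylyl cyclases, which make cyclic GMP, Npr2, a natriuretic peptide receptor, averaged 23.7 ± 1.19 CPM in knockouts and 32.4 ± 3.90 CPM in controls (SD, n = 3 each; edgeR adjusted p = 0.304). Gucy1b1, a subunit of the nitric oxide receptor, averaged 5.48 ± 0.709 CPM in knockouts and 4.90 ± 0.223 CPM in controls (SD, n = 3 each), with overlap. The medians of the 6 lists lay between -0.34 and 0.12, beside 0.01 for all genes tested.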

How the data were processed

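Paired-end polyA libraries were made with the NEBNext Ultra II kit from brown fat, per the labels' protocols. Salmon, StringTie, edgeR and the build GRCm38 appear in the submitters' processing notes; the sources here give no versions, annotation or strand setting. Estimated counts per gene, not normalized as their values show, were deposited by the authors. Symbols and lengths came from GENCODE vM21, which matched 54131 of 54385 identifiers. Total counts per library were 15575196 to 17538044 in knockouts and 13956786 to 17315577 in controls. The exact binomial intervals of summed counts (95%) and the floors (3 counts) cover counting error only.

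Counts were rounded, filtered with filterByExpr (minimum count 10, total 15) and tested with edgeR 4.0.16 in R 4.3.3 (quasi-likelihood, TMM, genotype only, two-sided, adjusted p under 0.05), after a check on simulated data. The 95% intervals of fold changes use the fit's standard error and degrees of freedom, and so include the spread between libraries. DESeq2 1.42.0 and limma 3.58.1 served as alternatives. The members and lists were chosen with earlier results of these data known. Named genes were the 9 cyclases, Adcy3 and the entry numbered after it, Acta1 and Ckm, the 3 genes most correlated with each tested cyclase (mean of at least 1 CPM, log2 of CPM + 0.5, Gm and Rik models left out) and the 2 of smallest p in each pathway list. Of the receptor list, 1 of these is not reported here. Gm29331, Gm35161, Mpc2 and the genes of upstream sequence were added after values were seen. Correlations are descriptions over 6 libraries of 2 genotypes. Libraries of a group differed beyond sampling noise in a chi-square test (at least 11.9 per degree of freedom), so none was counted as a copy.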

Additional observations from a re-analysis of the deposited data

How the results depend on the processing

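Normalization by RLE or upper-quartile factors, unrounded counts, the stricter filter of 1 CPM in 3 libraries, the scaling without the 10 most abundant and the mitochondrially encoded genes, limma-voom, the muscle score, the muscle share and the transcript length trend (added after seeing the data) left 0 cyclases past the threshold, as in the analysis reported. DESeq2 called 1 lower. Without the low-count filter 3 were called lower, Adcy2 (adjusted p = 4.31e-13), Adcy5 (0.000482) and Adcy9 (0.00237), where edgeR called 2.45% of 31870 genes lower; the cause was not tested. The values there were -2.74, -1.12 and -0.84, and that of Adcy5 in DESeq2 -1.12. Leaving out a library gave 0 to 2, the 2 without knockout library 1 (Adcy2 -5.67, Adcy5 -0.89). In that fit Adcy2 passed the filter through the controls alone. For all genes, 5 lower and 4 higher in the analysis reported, DESeq2 gave 276 and 31, no filter 782 and 111, the muscle score 8 and 9, and the block below 2 and 2, and leave-one-out 1 to 812 and 3 to 45, the highest without knockout library 1; limma-voom gave 27 lower, and the muscle share 0 lower in edgeR (801 at an unadjusted p under 0.05). Signs turned, without passing, in 14 of 126 fold changes, those of Adcy4, Adcy6 and Adcy10 and that of Adcy2 with the muscle share (1.73). The muscle score gave -0.12 for Adcy6 and -0.59 for Adcy10, and the muscle share -0.60, -1.22 and, for Adcy4, -0.13. Adcy4 was also at -0.02 with the scaling without abundant genes and at -0.01 with the stricter filter, and ranged from -0.10 to 0.13 with a library left out, as Adcy10 did from -0.05 to 0.40. The summed TPM of the 9, knockout minus control, was -19.5 to -4.25 with a library left out (-4.25 without knockout library 1) and -9.93 without Adcy2; in CPM (left-out libraries added after seeing the data) it was -21.3 to 21.7. Levels moved by over 1 SD with the median protein-coding length for Adcy6 (111 TPM in knockouts, 115 in controls), Adcy7 (0.722 in knockouts, 1.24 in controls), Adcy4 in knockouts (6.95) and Adcy2 (2.10), Adcy5 (1.86), Adcy9 (5.23) and Adcy10 (8.35) in controls, and with the longest transcript for Adcy10 in controls (10.4).

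With the replicate number as a block (replicate block), 2 genes were lower and 2 higher, and 0 cyclases were called. Same-numbered libraries deviated together at r = 0.07, 0.11 and 0.05, each library best with its own number, and nothing in the labels ties the numbers to a shared litter or day. Depth limits Adcy1 and Adcy8, at 1 to 18 counts in a library.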
